A study of Mus musculus with 7 samples.

Results

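The genes described here carry the thyrotropin (TSH) signal in thyroid follicular cells (TFCs), the epithelial cells that make thyroid hormone. They are 10 rows, taken by name, of a single-cell expression table of 30879 genes: the TSH receptor gene Tshr, the G protein subunit genes Gnas and Gnaq, the adenylyl cyclase gene Adcy6, the protein kinase A genes Prkaca, Prkar1a and Prkar2b, the transcription factor genes Creb1 and Crem, and the phosphodiesterase gene Pde8b. They were followed through thyroid tissue and through mouse thyroid follicular cell organoids (TFCOs, cystic three-dimensional cultures of TFCs) at early and late passage.

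TSH binds its receptor on the basal side of the follicular cell. The receptor acts mainly through the stimulatory G protein subunit made from Gnas, which turns on adenylyl cyclases that make cyclic AMP (cAMP), and to a lesser degree through the Gq subunit made from Gnaq. Cyclic AMP frees the catalytic subunits of protein kinase A from their regulatory subunits, the kinase phosphorylates CREB at the genes it binds, and phosphodiesterases break cAMP down again. In the thyroid this pathway drives both hormone production and growth of the follicular epithelium.

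The samples were 2 of primary thyroid tissue, 2 of early passage TFCOs and 3 of late passage TFCOs, all wild type C57BL/6. The methods give surplus material of female mice as the source of the organoids, and the age is not given in the sources used here. Both TFCO groups grew in basement membrane extract with RSPO3, A83-01, EGF, FGF10 and 1 µM forskolin, an activator of adenylyl cyclase, and without added TSH. Forskolin, which acts below the receptor, was thus given to every TFCO sample and to neither tissue sample, so that culture and forskolin cannot be told apart here. The gland receives TSH from the pituitary, and the activity of the pathway was not measured in either. Live, DAPI-negative cells were sorted into 384-well plates and read by SORT-seq, which counts the 3′ ends of transcripts with unique molecular identifiers (UMIs). The labels name the samples as separate but do not tie them to animals or organoid lines, so the p values measure the spread between these samples, which may be partly technical.

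Levels below are mean UMIs per 10000 UMIs of a cell, averaged over the cells of 1 sample. They rest on the 2035 of 2590 cells with at least 1000 UMIs, 578 of them tissue cells and 1457 TFCO cells. Clusters of the tissue cells, made without these 10 genes, gave 109 TFC-like cells (58 and 51 in the 2 samples), led by Tg but also by Calca and Pth, which mark C cells and parathyroid cells. All 12 TFC markers were found in the TFC-like cells of each tissue sample and in each TFCO sample. Of the TFCO cells, 1441 were used, and 16 were left out because C cell, parathyroid or erythroid markers outscored the TFC markers in them. That rule was not applied to the tissue, where 14 of the TFC-like cells met it and were kept in the main comparison. The median depth was 2331 and 2229 UMIs in the TFC-like tissue cells and 5230 to 12380 UMIs in the 5 TFCO samples. Of the 384 well barcodes among these cells, 383 occurred in more than 1 sample, since the plates use the same set.

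**Figure D1:**
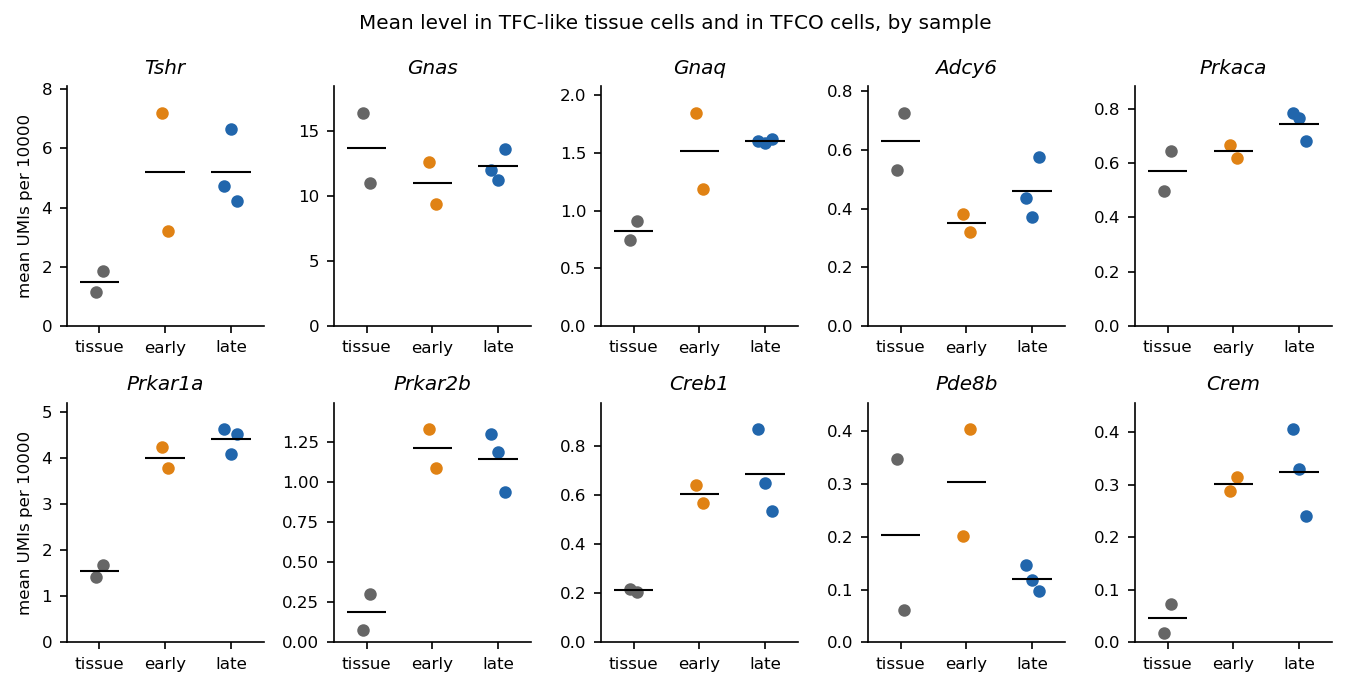
Mean level (UMIs per 10000, linear axis from 0) of each of the 10 genes in TFC-like tissue cells (grey, 2 samples), early TFCOs (orange, 2 samples) and late TFCOs (blue, 3 samples); each point is 1 sample and each bar is the group mean. All 5 TFCO samples lie above both tissue samples for 6 genes, Tshr, Gnaq, Prkar1a, Prkar2b, Creb1 and Crem, and the groups overlap for the other genes. Of 12141 genes at 0.1 UMIs per 10000 or more, 34.7% lie above both tissue samples in this way.

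The first comparison asked how the pathway genes in cultured follicular cells stand against those of the gland. Tshr, Prkar1a and Prkar2b were higher in TFCOs, and no gene of the 10 was lower past the threshold. The background was wide, as 23.5% of the 4356 genes tested were higher in TFCOs and 7.09% were lower. Of the 10 genes, 6 reached the minimum of 0.5 UMIs per 10000 over the group means and were tested. Over all tested genes the median log2 difference was 0.21. The minimum itself favours higher calls, since a gene nearly silent in tissue can reach it through the TFCO groups, and 64.7% of the 1023 genes called higher had a tissue mean under 0.5. Centring each sample on its median gene left 454 genes higher and 470 lower in TFCOs, where the uncentred values gave 1023 and 309, and the same 3 genes remained past the threshold.

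Tshr, the receptor itself, had a mean of 1.13 and 1.85 UMIs per 10000 in the TFC-like cells of the 2 tissue samples. In TFCOs it was 7.21 and 3.21 at early passage and 4.72, 6.66 and 4.24 at late passage. The lowest TFCO sample lay above the higher tissue sample, and the TFCO samples themselves spread more than 2-fold. The mean was 1.49 ± 0.509 in tissue (SD, n = 2) and 5.21 ± 1.68 in TFCOs (SD, n = 5), and the log2 difference of mean level plus 1 was 1.29 (SE 0.36, limma adjusted p = 0.0218). With a pseudocount of 1 such a difference understates the change of genes at low level. The call was lost when genes down to 0.1 UMIs per 10000 entered the test (adjusted p = 0.0850). That change cannot move the difference itself. The call was also lost with the UMIs of all cells of a sample summed (1.36, adjusted p = 0.0952).

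Counted as cells, Tshr UMIs were found in 22.4% (95% exact interval 12.5 to 35.3) and 33.3% (20.8 to 47.9) of the TFC-like tissue cells, and in 67.8% to 92.5% of the cells of a TFCO sample. Because the TFCO cells were deeper, every cell was also thinned to 1000 UMIs, which removed no cell. The shares were then 8.62% and 15.7% in tissue and 26.1% to 52.1% in TFCOs, again without overlap. Endothelial-like cells of the same tissue, which should lack the receptor, held a Tshr UMI in 15.7% and 12.1% of cells at median depths of 3780 and 3988 UMIs, and in 5.62% and 0% after thinning. The intervals cover counting error only.

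The regulatory subunits of protein kinase A hold the kinase inactive until cAMP binds them. Of their 4 genes, Prkar1a and Prkar2b were higher in TFCOs, Prkar1b was lower and Prkar2a did not pass the test. Prkar1a, the type I alpha subunit, was at 1.42 and 1.69 in tissue, at 4.24 and 3.78 in early TFCOs and at 4.63, 4.09 and 4.53 in late TFCOs. Its 5 TFCO samples lay close together and well above both tissue samples, with a mean of 4.25 ± 0.344 (SD, n = 5) against 1.55 ± 0.196 (SD, n = 2). Prkar1a was thus higher by 1.03 on the log2 scale (SE 0.22, limma adjusted p = 0.00692). After thinning it was 0.77 (adjusted p = 0.0649), and with the UMIs of all cells of a sample summed it was 0.61 (adjusted p = 0.197). In that sum the 2 deepest cells of tissue 2, with 268847 and 151110 UMIs, supplied 73.7% of the sample's TFC-like UMIs. Without the 2 deepest cells of each tissue sample the mean over cells gave 1.10 (adjusted p = 0.00657).

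Prkar2b, the type II beta subunit, was at 0.0746 and 0.304 in tissue, which rests on 2 and 10 UMIs. It was at 1.33 and 1.09 in early TFCOs and at 1.30, 1.19 and 0.941 in late TFCOs, so that even the lowest TFCO sample stood above the tissue samples. On the log2 scale it was higher by 0.88 (SE 0.16, limma adjusted p = 0.00368). Prkar2b reached the minimum through the TFCO groups alone, its tissue mean being 0.189, so the minimum favoured a higher call. With the minimum at 0.1 the adjusted p was 0.0166. Prkar2b was past the threshold under all 15 alternatives that keep every sample, and with 1 sample left out its log2 difference was 0.74 to 1.02. Apart from the fit at 0.1, these fits kept the minimum of 0.5 and share its favour, so they are not independent support. Prkar2a, the type II alpha subunit, was at 0.227 and 0.781 in tissue and at 0.435 to 0.619 in TFCOs, which lay between the tissue samples (log2 0.05, SE 0.15, limma adjusted p = 0.837). Prkaca, which encodes the main catalytic subunit, was at 0.495 and 0.643 in tissue and at 0.619 to 0.785 in TFCOs, and the groups overlapped. Its difference on the log2 scale was 0.11 (SE 0.13, limma adjusted p = 0.560) and turned to −0.06 when samples were centred on the median gene.

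**Figure D2:**
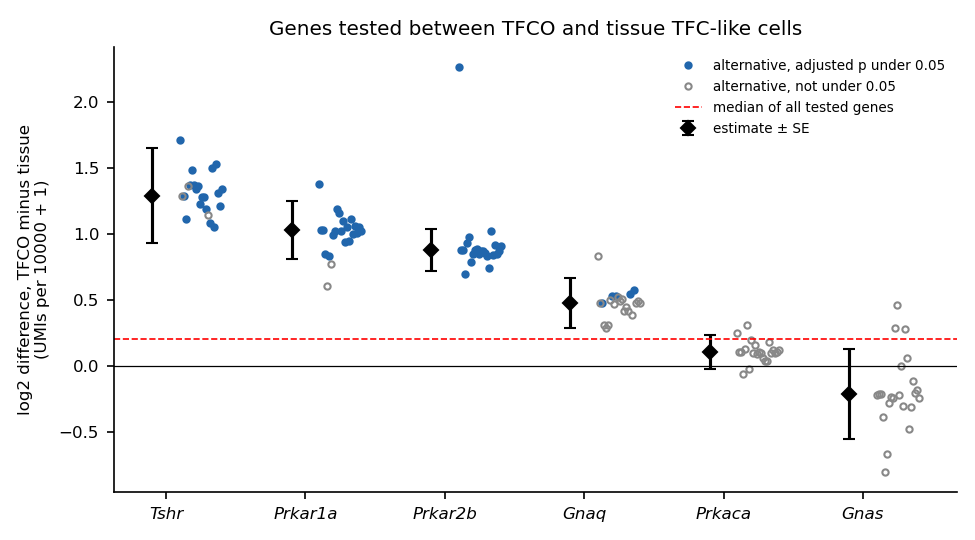
Log2 difference between TFCO cells and TFC-like tissue cells (mean UMIs per 10000 plus 1) for the 6 genes that were tested; the black diamond is the estimate with its SE, small points are the 22 alternatives (filled blue where the adjusted p was under 0.05, open grey where it was not), and the dashed red line is the median of all 4356 genes tested (0.21). Tshr, Prkar1a and Prkar2b lie above 0 under every alternative, and Gnas lies on both sides of 0. A change of the minimum level or of the weights alone cannot move the estimate.

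Of the G protein genes, Gnaq and Gnas differed in their pattern. Gnaq was at 0.747 and 0.907 in tissue and at 1.85, 1.19, 1.60, 1.59 and 1.62 in the early and late TFCO samples, with no overlap. Its log2 difference of 0.48 (SE 0.19) was not past the threshold (limma adjusted p = 0.0697). It was past it with equal weights for all samples (adjusted p = 0.0176) and with tissue clusters made with these genes kept in (0.0440). The same held with TFCO cells limited to the well barcodes of the tissue TFC-like cells (0.0492). Without tissue 2 or early TFCO 2, which left 1 sample in that group, the log2 difference was 0.55 or 0.58. The fit without tissue 2 also weighted all samples equally.

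Gnas, which makes the subunit that couples the receptor to adenylyl cyclase, was at 16.4 and 11.0 in the TFC-like cells of tissue, at 12.6 and 9.34 in early TFCOs and at 12.0, 11.2 and 13.6 in late TFCOs. The groups overlapped, with a log2 difference of −0.21 (SE 0.34, limma adjusted p = 0.670). In tissue the level was uneven between cells. Among the 109 TFC-like tissue cells, 14 scored higher on C cell, parathyroid or erythroid markers than on TFC markers, and their mean Gnas level was 61.2 in tissue 1 (9 cells) and 38.1 in tissue 2 (5 cells). The other TFC-like cells averaged 8.15 and 8.09, and the 14 cells held 58.0% and 33.9% of the summed Gnas level of the 2 samples. By highest score, the mean was 39.7 in 7 cells of C cell score, 90.6 in 5 cells of parathyroid score and 5.12 in 2 cells of erythroid score, against 8.12 in the 95 cells of TFC score.

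Without those 14 cells the sign of the Gnas difference turned, and TFCOs were higher by 0.46 on the log2 scale (limma adjusted p = 0.334). The same sign was found with tissue clusters made with the pathway genes kept in (0.29), without tissue 1 (0.06), and without the 14 cells and with Tg left out of the total (0.28). The summed level of the 4 C cell markers was 89.8 and 20.6 UMIs per 10000 in the TFC-like tissue cells and at most 0.125 in a TFCO sample, and that of the 3 parathyroid markers was 34.9 and 24.0 against at most 1.18. Over all TFC-like tissue cells the endothelial markers summed to 7.48 and 11.1, against at most 2.45 in a TFCO sample. Immune markers summed to 10.9 and 5.64 against at most 0.725, and mural markers to 2.99 and 5.23 against at most 1.45. Schwann and skeletal muscle markers overlapped between tissue and TFCO samples. The part of such signal in the tissue levels was not tested. Leaving the 14 cells out kept the count of genes past the threshold among the 10 at 3. Tg, the hormone precursor, took 13.0% and 4.02% of the summed UMIs of the TFC-like tissue cells and 0.622% to 1.50% in TFCOs. The lower tissue share, of tissue 2, is weighted by its 2 deepest cells. Averaged over cells, Tg was at 1392 and 1106 UMIs per 10000 in tissue and at 68.7 to 155 in TFCOs. With Tg left out of the total the count was also 3, and with both changes it was 2, Tshr then having a log2 difference of 1.14 (adjusted p = 0.0712).

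**Figure D3:**
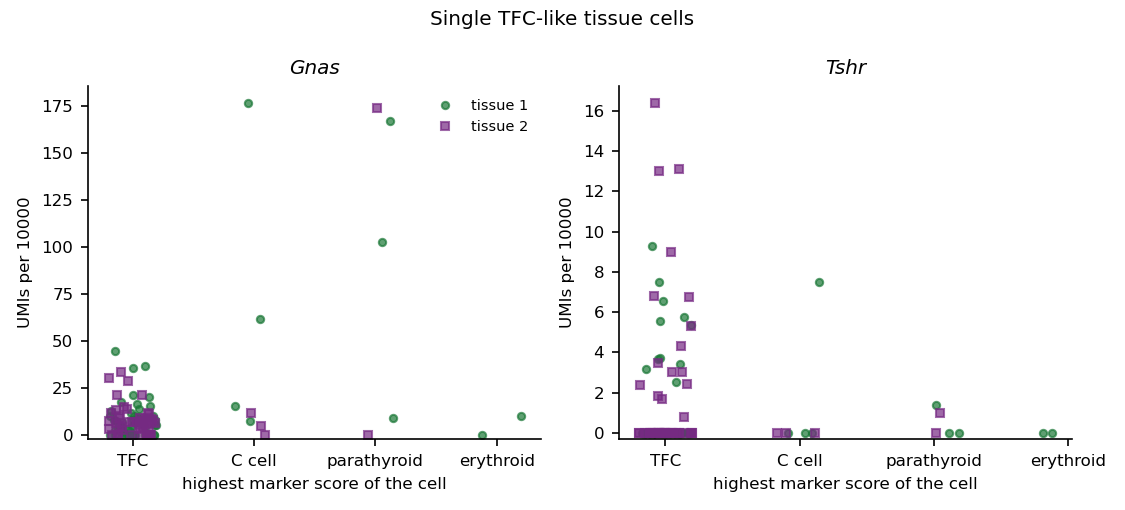
Gnas and Tshr (UMIs per 10000, linear axes) in each of the 109 TFC-like tissue cells, placed by the marker list on which the cell scored highest; circles are cells of tissue 1, squares are cells of tissue 2, and the sideways spread is only for legibility. No cell of TFC score is above 44.7 for Gnas, while 5 of the 14 cells with another highest score are.

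The other 4 genes stayed under the minimum level in this comparison, and their differences are given with the minimum lowered to 0.1. Adcy6 and Creb1 also reached 0.5 under some alternatives. Adcy6, one of the adenylyl cyclases, was at 0.531 and 0.727 in tissue and at 0.319 to 0.575 in TFCOs, with a log2 difference of −0.21 (SE 0.15, limma adjusted p = 0.354). It was past the threshold, as lower in TFCOs, in cells of at least 2000 UMIs (−0.51, adjusted p = 0.0454). Without tissue 1, in a fit with equal weights and 1 tissue sample, the difference was −0.30. Creb1, the transcription factor that protein kinase A activates, was at 0.218 and 0.207 in tissue and at 0.642, 0.566, 0.868, 0.648 and 0.535 in the early and late TFCO samples. These groups did not overlap, but the difference of 0.44 (SE 0.16) had a limma adjusted p of 0.101. Creb1 was past the threshold without late TFCO 2 (limma adjusted p = 0.0409) or late TFCO 3 (0.0273). Without tissue 2 or early TFCO 2, which left 1 sample in that group, its difference was 0.43 or 0.45.

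Crem encodes activators of cAMP-responsive genes and, from an internal promoter, the repressor ICER. It was at 0.0183 and 0.0734 in tissue, on 1 and 18 UMIs, and at 0.288, 0.315, 0.406, 0.330 and 0.240 in TFCOs, each above both tissue samples. It was higher by 0.33 on the log2 scale without passing the test (SE 0.11, limma adjusted p = 0.0856), and 3′ counts do not separate its isoforms. With a tissue mean of 0.0459, Crem reached even the minimum of 0.1 through the TFCO groups alone, which favours a higher difference. Pde8b, a cAMP-specific phosphodiesterase, was at 0.347 and 0.0614 in tissue and at 0.0967 to 0.404 in TFCOs, a spread within each group that covered any difference between them (log2 0.01, SE 0.12, limma adjusted p = 0.956). Over all 10 genes, every TFCO sample lay above both tissue samples for 6 and below both for 0. Among 12141 genes at 0.1 or more, 34.7% lay above both in this way and 10.4% below both. That minimum also admits genes through the TFCO groups alone.

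A cAMP response element, the palindrome TGACGTCA bound by CREB, was searched for on both strands in RefSeq promoter windows of GRCm38.p6 (250 bases before to 50 after each annotated start). Windows were found for 7 of the 10 genes (21 windows). None was available for Tshr, Adcy6 or Crem, so these were not searched. Among the genes searched, the motif was in 2 overlapping windows of Prkar1a, at 1 site. It is shown because Prkar1a was 1 of the 3 genes higher in TFCOs. The site lies on the plus strand within chr11:109650889-109650918, its first base 49 bases before an annotated start, with the motif in capitals:

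Prkar1a: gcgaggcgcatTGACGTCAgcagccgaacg

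The motif was present in 1.79% of all 32851 windows. The match describes the letters only, and binding was not measured.

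The loci were taken from GENCODE M21 on GRCm38, the build the labels name. Tshr spans chr12:91384563-91549808 on the plus strand, Prkar1a chr11:109649405-109669656 (plus) and Prkar2b chr12:31958476-32061296 (minus). Gnas spans chr2:174284320-174346744 (plus), and the annotated gene Gm20721 covers its 3′ part on the other strand, so that reads of the pair cannot be told apart unless counting used strand, which is not given in the sources used here. Adcy6 (chr15:98589973-98610076, minus) and Pde8b (chr13:95024454-95250336, minus) also have antisense genes at their 3′ ends. No stretch of 50 bases in the transcripts of Tshr, Gnas, Adcy6, Prkar1a, Prkar2b, Pde8b or Crem occurred in another gene's transcripts, and for Gnaq, Prkaca and Creb1 the share was at most 0.328%. In the last 500 bases of the transcripts, nearest the counted 3′ ends, it was 0.887% for Prkaca, shared with Prkaca-ps1, and 0 for Gnaq and Creb1.

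Around these genes, 129 others of the pathway were listed in 11 groups, of which 121 were in the table and 45 were tested. In TFCOs 10 were higher, 2 were lower and 33 did not pass the test, with a median log2 difference of 0.25. These shares, 22.2% higher and 4.44% lower, and the median lie near the 23.5%, 7.09% and 0.21 of all genes tested, so the counts are no result about the pathway as a whole. Of the 10 higher genes, 8 had a tissue mean under 0.5 and reached the minimum through the TFCO groups: Akap8, Areg, Ep300, Gnai3, Grk3, Pde7a, Per2 and Prkacb. After centring on the median gene 6 of these 12 remained past the threshold. They were Pde7a (adjusted p = 0.0116), Areg (0.0165), Rap1b (0.0386) and Grk3 (0.0461) as higher and Prkar1b (0.00698) and Pde11a (0.000505) as lower. The calls of Prkacb (0.0519), Ezr (0.0525), Per2 (0.117), Gnai3 (0.118), Ep300 (0.139) and Akap8 (0.166) were lost. The protein kinase A list, the members included, had 6 genes tested, of which 3 were higher and 1 lower. Prkacb, a second catalytic subunit gene, was at 0.0357 and 0.620 in tissue and at 0.976 to 1.22 in TFCOs (log2 0.69, SE 0.18, limma adjusted p = 0.0146). Prkar1b, the type I beta regulatory subunit, went the other way, at 1.13 and 1.17 in tissue and at 0.387 to 0.669 in TFCOs (log2 −0.52, SE 0.15, limma adjusted p = 0.0213). Its level followed the well barcode, with a correlation of 0.164 between TFCO cells of different plates.

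Among phosphodiesterases, 7 genes were tested, with 1 higher, 1 lower and a list median of 0.30. Pde7a, which is specific for cAMP, was at 0.0271 and 0.129 in tissue and at 0.736 to 1.30 in TFCOs (log2 0.85, SE 0.16, limma adjusted p = 0.00404). Pde11a, which cleaves both cAMP and cGMP, was at 1.52 and 2.03 in tissue and at 0.282 to 0.759 in TFCOs (log2 −0.89, SE 0.15, limma adjusted p = 0.00211). The 2 genes separated tissue from TFCO samples in opposite directions. Of 8 tested anchoring proteins, which hold protein kinase A at its sites in the cell, 2 were higher, Akap8 (log2 0.44, limma adjusted p = 0.0308) and Ezr, the membrane linker ezrin (1.01, limma adjusted p = 0.0204).

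Of 10 G protein subunit genes tested, Gnai3, which encodes an inhibitory subunit, was higher (log2 0.50, limma adjusted p = 0.0209) and 0 were lower, and the list median was 0.39. None of the 7 tested genes of the Gq branch passed, and their median was −0.13. After centring, Gna11, which encodes a second Gq class subunit, was past the threshold as lower (log2 −0.42, adjusted p = 0.0451). The only adenylyl cyclase at the minimum level was Adcy10, the soluble form (log2 0.20, limma adjusted p = 0.330). The Epac and Rap list, which stands for cAMP signalling that bypasses protein kinase A, had 1 of 4 higher, the small GTPase gene Rap1b (log2 0.70, limma adjusted p = 0.0101). Of the CREB family and its coactivators, 1 of 2 was higher, the acetyltransferase gene Ep300 (log2 0.49, limma adjusted p = 0.0317), and of the desensitisation genes, 1 of 2, the receptor kinase gene Grk3 (log2 0.58, limma adjusted p = 0.00982).

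Genes that cAMP induces early in other cells formed the next list. Of 18, 8 were tested, 2 were higher and 0 lower, a share near the 23.5% of all genes, with a list median of 0.39. Areg, an EGF receptor ligand, was at 0 and 0.149 in tissue and at 1.11, 0.790, 1.86, 1.03 and 1.04 in TFCOs (log2 0.97, SE 0.21, limma adjusted p = 0.00648). Per2, a circadian clock gene, was at 0.211 and 0.438 in tissue and at 0.727 to 1.07 in TFCOs (log2 0.50, SE 0.15, limma adjusted p = 0.0251). Fos did not pass, at 0.185 and 1.12 in tissue and at 0.213 to 1.59 in TFCOs. None of the 18 other Gs-coupled receptor genes in the table, of 20 listed, reached the minimum level.

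The second comparison asked whether the genes changed with passage. None of the 6 tested genes was past the threshold between late and early TFCOs, where 1 of the 4356 genes tested was (0.0230%) and 883 had an unadjusted limma p under 0.05. The log2 differences, late minus early, were 0.06 for Tshr (SE 0.27), 0.15 for Gnas (SE 0.25), 0.06 for Gnaq (SE 0.14), 0.09 for Prkaca (SE 0.10), 0.11 for Prkar1a (SE 0.17) and −0.05 for Prkar2b (SE 0.12). The limma adjusted p values ran from 0.644 to 0.921, and none of the alternatives brought a tested gene of the 10 past the threshold. Prkaca was higher in every late sample than in either early sample, and Pde8b was higher in both early samples (0.202 and 0.404) than in the late ones (0.147, 0.118 and 0.0967). Late and early samples were apart in this way for 39.2% of the genes at 0.1 or more.

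The spread of Tshr between TFCO samples did not follow passage. Its highest means were in early TFCO 1 (7.21) and late TFCO 2 (6.66), which also had the highest median depths, 11170 and 12380 UMIs, and the highest shares of proliferating cells, 38.0% and 31.7%. The other samples had Tshr means of 3.21 to 4.72, depths of 5230 to 8978 UMIs and proliferating shares of 6.89% to 16.6%. The proliferating shares rest on a count of markers found, without correction for depth, so they may partly follow depth. The paper gave a lower range of shares for its organoid lines, taken from membership of a cluster, which is a different measure. The part of depth or cycling in the spread of Tshr was not tested across samples.

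Within samples, cycling could be compared directly. A TFCO cell was called proliferating when it held UMIs of at least 3 of 10 proliferation markers, and 21 to 114 cells of each sample were. Tshr was lower in the proliferating cells of all 5 samples. It was at 6.52 against 7.63 in the other cells of early TFCO 1, at 2.17 against 3.33 in early TFCO 2, and at 2.66 against 4.87, 5.74 against 7.09 and 3.93 against 4.30 in late TFCO 1, 2 and 3. The difference on the log2 scale was −0.34 (SE 0.09, limma adjusted p = 0.0482), where 3.62% of 4700 genes tested were higher in proliferating cells and 1.19% lower.

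That call was at the edge of the threshold. It was lost when genes down to 0.1 were tested (adjusted p = 0.0692), with a limit of 2 markers (0.190), after thinning (log2 −0.12, adjusted p = 0.867) and in 4 of the 5 fits that left out 1 sample, those without early TFCO 1 (0.0970), early TFCO 2 (0.0995), late TFCO 1 (0.150) or late TFCO 2 (0.124). Proliferating cells were deeper than the others in each sample, with medians of 7999 to 19391 UMIs against 4673 to 11263. Gnas was higher in the proliferating cells of 5 of 5 samples, at 10.7 to 14.5 against 9.19 to 13.4, and did not pass (log2 0.16, SE 0.07, limma adjusted p = 0.253). Pde8b was lower in 5 of 5, at 0.0426 to 0.178 against 0.102 to 0.430, and did not pass either (log2 −0.13, limma adjusted p = 0.214, tested with the minimum at 0.1). The share of all genes with the same sign in 5 of 5 samples was not taken. The sign counts of Tshr, Gnas and Pde8b are therefore descriptions. The difference between late and early TFCOs in the effect of proliferation was not past the threshold for any of the 7 genes tested. For Tshr it was −0.03 (SE 0.18, limma adjusted p = 0.981).

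**Figure D4:**
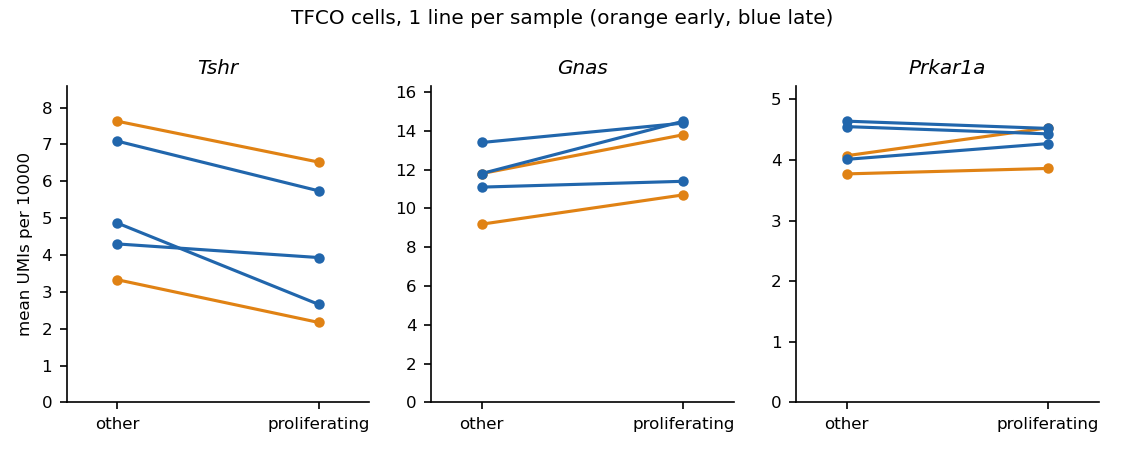
Mean level (UMIs per 10000, linear axes from 0) of Tshr, Gnas and Prkar1a in the other and the proliferating cells of each TFCO sample, with a line joining the 2 means of 1 sample (orange early, blue late). All 5 lines fall for Tshr and rise for Gnas, while Prkar1a rises in 3 samples and falls in 2.

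In the gland the genes could also be followed through the other cells. These classes come from clusters of the same cells, so their levels are given as a description. For Tshr the mean of the 2 samples was highest in TFC-like cells (1.13 and 1.85). The 15 and 7 stromal-like cells held 0.165 and 2.34, on 1 UMI and 6 UMIs, which spans all other classes. The cells led by Gm10800 (0.589 and 1.28), the haemoglobin-led cells (0.981 and 0.489), the mural-like cells (0.523 and 0.663) and the endothelial-like cells (0.489 and 0.213) overlapped or nearly touched one another in that order, and immune-like cells were at 0.249 and 0.238. Only the samples of TFC-like cells were both above 1.

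Gnas was highest in endothelial-like cells, at 21.2 and 20.1, followed by mural-like cells at 17.8 and 14.5, both above the 8.15 and 8.09 of the TFC-like cells of TFC score. Adcy6 was at 3.28 and 3.31 in mural-like cells, the pericytes and smooth muscle cells around vessels, and at most 0.732 in a sample of any other class. Pde8b was likewise at 3.45 and 2.14 in mural-like cells and at most 0.854 elsewhere, and Prkar2b was at 1.47 and 0.567 there and at most 0.506 elsewhere. The 3 genes thus had their highest tissue levels outside the follicular cells, in each of both samples. Gnaq was lowest in TFC-like cells, at 0.747 and 0.907, and highest in immune-like cells at 5.49 and 3.86. Prkar1a was at 2.94 and 3.57 in endothelial-like cells, above its TFC-like level in both samples. Creb1 was at most 1.47, in immune-like cells of tissue 2, and Crem at most 0.565 there.

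**Figure D5:**
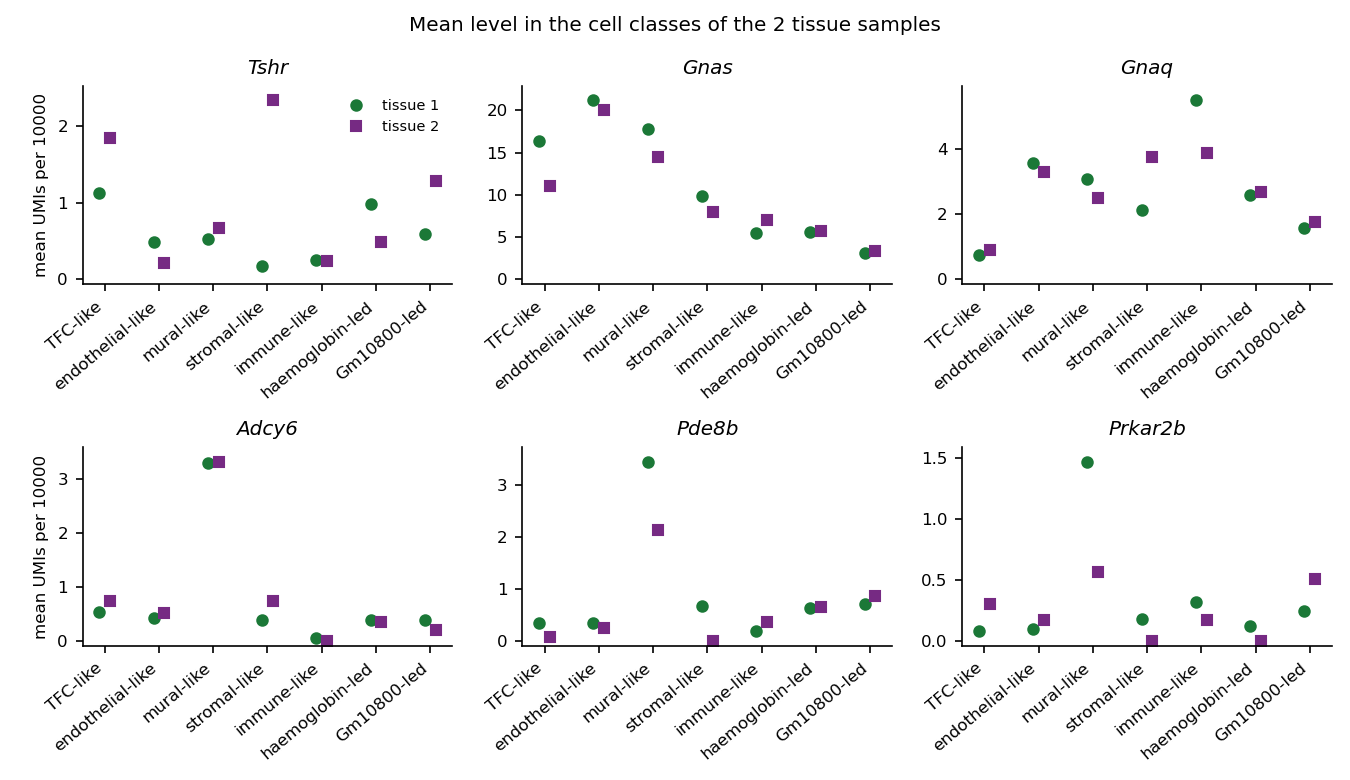
Mean level (UMIs per 10000, linear axes) of 6 genes in 7 classes of tissue cells, with a circle for tissue 1 and a square for tissue 2. Adcy6 and Pde8b stand highest in mural-like cells, Gnas in endothelial-like cells, Gnaq is lowest in TFC-like cells, and Tshr is highest in TFC-like cells apart from 1 stromal-like value that rests on 7 cells.

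The genes whose levels were most like Tshr were found over 19 means, those of the 14 tissue classes and samples and of the 5 TFCO samples. Of 4745 genes, Tmem9 (Pearson r = 0.940), Chpt1 (0.938), Serinc5 (0.932), Sdc4 (0.924) and Itga3 (0.923) ranked highest. The points share libraries and depth and the values are descriptions.

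Last, each gene was checked for dependence on the well barcode, since all plates carry the same 384 barcodes and a level that follows the barcode is not a property of the cell. Over 2238 pairs of TFCO cells from different plates with the same barcode, the correlation was 0.0899 for Pde8b and 0.0588 for Tshr and between −0.0166 and 0.0192 for the other 8 genes. Of 19498 genes, 21.4% were above 0.05 and 11.0% above 0.1, and the median was 0.0145, so over these pooled pairs 2 of the 10 genes were above 0.05 and 0 above 0.1. Within passages the values were higher for some genes. No share over all genes was taken for values within passages, after thinning or in tissue cells, so those are descriptions. Over 718 pairs of late and 201 pairs of early TFCO cells, Pde8b had 0.116 and 0.110, Prkar2b 0.0896 and 0.0773, Gnas 0.0524 and 0.0904, and Prkar1a −0.000343 and 0.107, while Tshr had 0.0325 and −0.0598. After thinning the values for Pde8b and Tshr were 0.0227 and 0.00402. In tissue cells, over 216 pairs, Tshr had 0.173 (0.0284 thinned) and Pde8b 0.0420. With TFCO cells limited to the barcodes found among the TFC-like tissue cells, the Tshr difference between TFCOs and tissue was 1.37 on the log2 scale (limma adjusted p = 0.0109).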

How the data were processed

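The deposited table (30879 genes, 2590 cells) holds, per its values, the natural log of 1 plus UMIs per 10000 of the cell. Per the labels, reads were processed with Trim Galore 0.4.3, STAR 2.5.3a and Seurat on GRCm38. UMIs were recovered by undoing the log and dividing each cell by its smallest value, which gave whole numbers for 100% of non-zero values within 0.01. Cells of at least 1000 UMIs were kept. Tissue cells were clustered with scanpy 1.11.5 (2000 variable genes, 30 components, 15 neighbours, Leiden resolution 1) without the 10 genes, the pathway genes and genes above 0.05 in the barcode correlation, and classes were named from marker lists. One cluster whose leading genes were predicted genes was left unnamed (Gm10800-led) and one was called haemoglobin-led, both after the clusters were seen. Spike-ins are not used here.

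Sample means were log2-transformed with a pseudocount of 1 and fitted in 3 groups with limma 3.58.1 (R 4.3.3, trended, weights 0.506 for tissue and 1.31 for TFCO samples). Genes at 0.5 or more were tested, with Benjamini-Hochberg adjustment and a threshold of 0.05. Proliferating and other cells were compared with the sample as a term. The fit was tested on simulated data, with changes larger than the main differences of the 10 genes and a spread taken from TFCO samples only. The simulation therefore does not cover changes of the reported size or the spread of the tissue samples. The 10 genes and the lists were chosen with earlier results of these data known. All 10 were named, with up to 4 genes past the threshold per pathway list and the 5 most like Tshr. Alternatives were another pseudocount, filter, weighting, scaling, depth, cell choice and leaving out each sample. Total depth was 1406925 to 4703472 UMIs per sample, so means under 0.1 rest on few UMIs.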

Additional observations from a re-analysis of the deposited data

How the results depend on the processing

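Of the genes tested, 3 were past the threshold between TFCOs and tissue. The count was 1 with UMIs summed over cells and 2 to 4 under the other alternatives that keep all samples. Adcy6 or Creb1 entered the genes tested in some of these. Over all genes, 1332 were past the threshold, with 207 for summed UMIs, 822 for cells of 2000 or more UMIs, 789 after thinning and 884 without the 14 tissue cells and Tg. With 1 sample left out, the log2 difference was 1.05 to 1.53 for Tshr, 0.95 to 1.11 for Prkar1a and 0.74 to 1.02 for Prkar2b. Between TFCOs and tissue, Gnas turned to 0.46, 0.29, 0.28 and 0.06 as given above (−0.47 to 0.06 with 1 sample left out), and Prkaca to −0.06 when centred and −0.02 after thinning. The cause was not tested. For proliferating cells the count of 1 went to 0 with the minimum at 0.1, a limit of 2 markers or thinning, and to between 0 and 1 with 1 sample left out. There Prkaca turned to −0.04 (2 markers), Gnaq to −0.07 (5 markers) and −0.12 (thinned), Prkar1a to −0.05 (5 markers), −0.02 (thinned) and −0.03 (summed), and Prkar2b to 0.11 (thinned).

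Between late and early TFCOs the count was 0 throughout, but signs turned for differences near 0: after thinning Gnaq −0.12, Prkar1a −0.06 and Tshr −0.14; with summed UMIs Gnaq −0.06; with matched barcodes Gnaq −0.06, Prkar2b 0.06 and Tshr −0.04. Leaving out 1 sample gave Tshr −0.42 to 0.54, Gnas −0.04 to 0.35, Gnaq −0.13 to 0.25 and Prkar2b −0.13 to 0.03. A term for late TFCO 2 and early TFCO 1 gave 397 genes past the threshold and leaving out early TFCO 1 gave 320, in place of 1, with none of the genes tested here among them. The count of genes above 0.05 for the well barcode was 2, 0 after thinning and 1 in tissue cells. The share over all genes, 21.4%, was taken only for the first of these, so the counts cannot be compared with a background. Fits without 1 tissue sample weighted all samples equally and take the remaining tissue sample to vary like the rest. No paired analysis was possible because the labels tie no tissue sample to an organoid line.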

Other observations

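Pde1c, a phosphodiesterase gene of the pathway lists, was listed at 47.9 and 47.6 UMIs per 10000 in TFC-like tissue cells and at 35.2 to 70.6 in TFCOs, and its level followed the well barcode with a correlation of 0.756 in TFCO cells and 0.775 in tissue cells. Rapgef4, the gene of a cAMP-activated exchange factor for Rap, had 0.457 and 0.156, and Itpr1, the gene of an inositol trisphosphate receptor, had 0.289 and 0.205. Of 111 other pathway genes with an estimate in TFCO cells, 33 were above 0.05 and 17 above 0.1.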
